A study of Mus musculus with 9 samples.

Results

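The voltage-gated calcium and sodium channel genes were taken as every gene whose symbol starts with Cacna, Cacnb or Cacng, or is Scn followed by a number and a or b. Of 40 such genes in the RefSeq table, 38 had a named probe on the array and all 38 were tested, among 30836 items tested in all. Scn3b and Scn9a were not analysed here. Of the 38 genes, 14 had several probes, giving 55 probes together, and the brightest probe stood for its gene. The probe was well above background on all 9 arrays for 34 genes. Cacna1e was not well above it on MCAO array 1 and VEGF array 1, Cacna1f and Scn10a on VEGF array 1, and Scn7a on MCAO arrays 1 and 2 and VEGF arrays 1 and 3.

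Adult male C57BL/6 mice, aged 50 to 53 days, gave 1 brain RNA sample each, with 3 arrays in each of 3 groups and, per the labels, different mice for each experiment. Sham mice had sham surgery, and no injection is stated for them. In MCAO mice the middle cerebral artery was occluded for 90 min, and 3 h after blood flow returned the right lateral ventricle was injected with 1 µl of vehicle, phosphate-buffered saline. The VEGF group was occluded likewise and had 1 µl of human VEGF-A165 at 10 µg/ml, a growth factor for blood vessels, injected at the same place and time. Brains of all groups were collected 24 h after reperfusion, which was 21 h after the injections. The labels name the tissue as brain and do not say which part. All 16 listed neuron markers were measured. Of 8 listed cerebellar genes 6 passed the filter, and the granule cell genes Gabra6 and Cbln3, well above background on 2 and 0 of the 9 arrays, did not.

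Voltage-gated calcium and sodium channels open when the membrane depolarises. Sodium channels carry the rising phase of the action potential along axons, and calcium channels turn depolarisation into calcium entry, which releases transmitter at terminals and drives signalling in cell bodies and dendrites. Each channel is built around a large pore-forming alpha subunit, and smaller auxiliary subunits bring it to the membrane and tune its gating. Several gamma subunits do not serve calcium channels mainly but traffic AMPA-type glutamate receptors and are called TARPs. In ischaemia, loss of ATP depolarises neurons, and entry of sodium and calcium through these and other channels is part of the injury.

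A level below is the log2 processed signal of a probe minus the 75th percentile of its array, so 0 is as bright as that percentile, and values in a list of 3 follow the order of arrays 1, 2 and 3. Probes bind with different strengths, so the levels of different genes were not compared. MCAO array 1 and VEGF array 1 stood apart from the other ischaemic arrays. They were also the dimmest, with a 75th percentile of 797 and 723 against 1250 to 1770 on the other 7, the lowest shares of spots well above background (78.7% and 73.0%) and the highest shares of outlier spots (0.332% and 0.324%). Their median over the 38 channel genes was 1.58 and 1.62 log2 units below the sham mean, written as -1.58 and -1.62, against -0.57 and -0.46 on MCAO arrays 2 and 3 and -0.38 and -0.37 on VEGF arrays 2 and 3. The same arrays had the lowest medians of the 16 neuron markers, at -2.26 and -2.30, against -0.64, -0.37, -0.45 and -0.21 on the other 4. They also had the highest medians of the 15 endothelial markers, at 2.01 and 2.60 against 0.25 to 0.67. Yet 0 of these markers were called higher and 1 was called lower in each comparison with sham. Of 8 neutrophil markers 4 rose in each comparison with sham, and their median per array read 4.50, 2.53 and 4.04 in MCAO and 4.76, 2.69 and 3.92 in VEGF. Of 11 microglia and macrophage markers 4 rose and 1 fell in each comparison, with median differences of 0.81 and 1.07. Of all items, 2.28% were called higher in MCAO and 2.07% in VEGF, and 0.535% and 0.357% lower. MCAO array 1 and VEGF array 1 were not alike in every list. The median of 8 choroid plexus markers was 2.03 and -3.73 on them, and that of 11 oligodendrocyte markers 1.91 and 0.40. The summed linear level of the channel genes was 149 to 172 on the sham arrays, 39.1 to 120 on the MCAO arrays and 33.6 to 131 on the VEGF arrays. For neuron markers these sums were 849 to 944, 217 to 672 and 234 to 739. The part of array quality and of these cell type markers in the channel results was not tested. In RNA of whole tissue, fewer neurons and less channel RNA per neuron cannot be told apart. The sham arrays shared 1 slide and the 6 ischaemic arrays shared the other, so slide and occlusion cannot be told apart, and MCAO array 1 had a scan day of its own. All ischaemic mice were injected and no injection is stated for sham, so injection and occlusion cannot be told apart either.

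**Figure D1:**
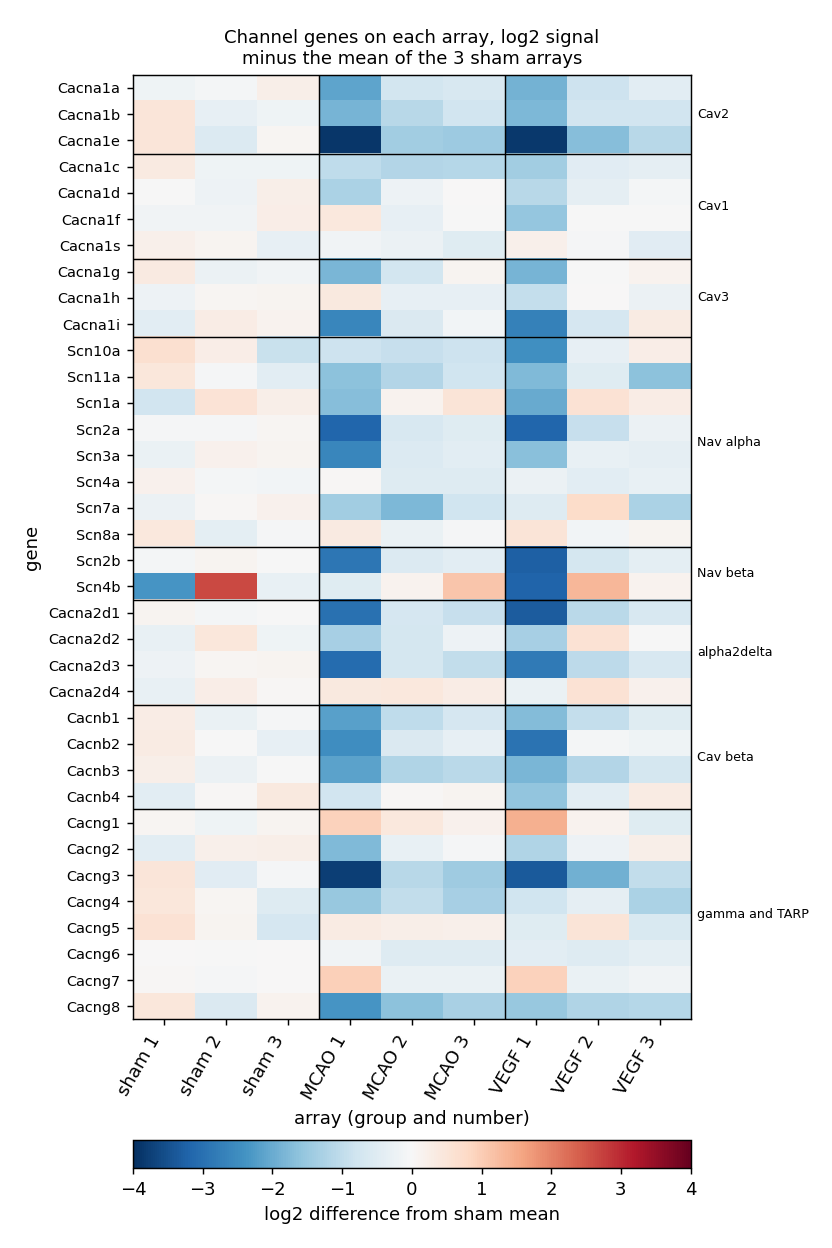
Colour gives the log2 signal of channel genes (rows, grouped by family) on each of the 9 arrays (columns) minus the mean of the 3 sham arrays, with blue below and red above sham. The columns of MCAO array 1 and VEGF array 1 are the darkest, with medians over all 38 genes of -1.58 and -1.62, and Scn4b differs among the sham arrays themselves.

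**Figure D2:**
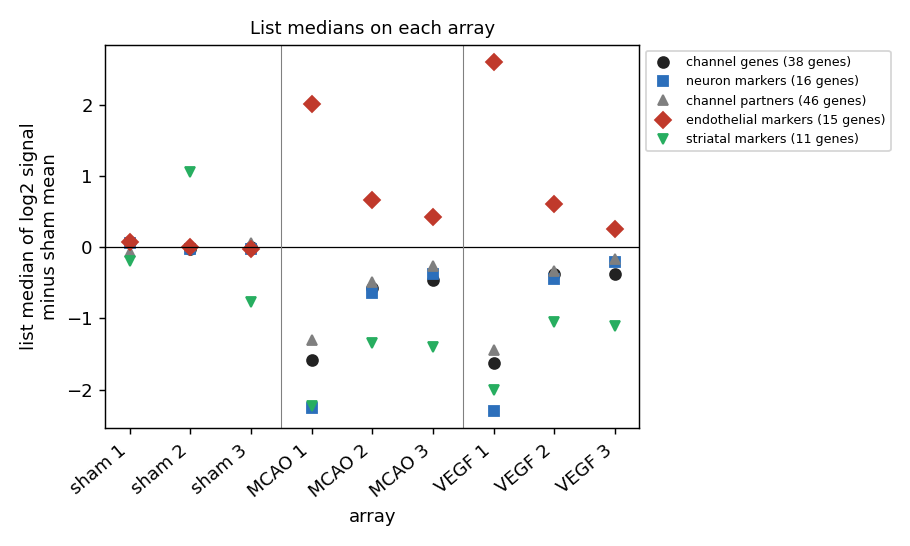
Each point is the median over a list of genes of the log2 signal minus the sham mean (vertical axis) on 1 array (horizontal axis). The channel genes lie below 0 on all 6 ischaemic arrays, between -0.37 and -1.62, and the endothelial markers lie above 0 on the same arrays.

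In the brain after occlusion and injection most channel genes had a lower signal than in sham. However, the spread between animals was wide, and 1 gene passed the test in the fit of all arrays. Cacng8, an AMPA receptor TARP, fell 3.40-fold in MCAO against sham (limma, adjusted p = 0.0344). That is 1 of 38 genes, or 2.63%, where 2.81% of all items were called in that comparison and 0.535% were called lower. In VEGF against sham 0 of 38 passed, where 2.43% of all items did, 0.357% lower. None passed as higher, where 2.28% of all items did so in MCAO and 2.07% in VEGF. At an unadjusted p under 0.05, limma counted 11 channel genes (28.9%) for MCAO and 10 (26.3%) for VEGF, all of them lower than sham. All items gave 21.4% and 23.5% at that level, with 9.28% and 11.4% lower and 12.1% and 12.0% higher.

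The direction was shared more widely than the calls. In MCAO against sham 31 of the 38 genes (81.6%) had a difference below 0, and in VEGF against sham 34 (89.5%) did. Of all items, 53.2% and 57.6% were below 0 in those comparisons. The median difference of the channel genes was -0.88 log2 units in MCAO and -0.66 in VEGF, against -0.04 and -0.12 over all items. These comparisons share the sham arrays, so they are not independent of each other. The channel differences ran from -2.24 (Cacna1e) to 0.51 (Cacng1) in MCAO and from -2.23 to 0.35, in the same genes, in VEGF. The Cacna1e values rest in part on MCAO array 1 and VEGF array 1, where its signal was not well above background, and the gene was kept only through the sham group. The lowest differences without those 2 arrays were -1.47 (Cacng8) in MCAO and -1.45 (Cacng3) in VEGF.

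For 15 genes (39.5%) all 6 ischaemic arrays lay below all 3 sham arrays, where 12.5% of all items did so. They were Cacna1a, Cacna1b, Cacna1c, Cacna1e, Cacna2d1, Cacna2d3, Cacnb1, Cacnb3, Cacng3, Cacng6, Cacng8, Scn2a, Scn2b, Scn3a and Scn11a. No channel gene had all 6 ischaemic arrays above sham, where 14.6% of all items did. Taken by group, 18 genes (47.4%) had all MCAO arrays and 16 (42.1%) all VEGF arrays below sham, against 20.7% and 23.9% of all items. Cacna1e, in all 3 of these counts, and Scn7a, among the 18, were well above background on every array in sham only, so the filter that kept them partly fixed their place below sham. The MCAO arrays of 2 genes, Cacna2d4 and Cacng1, and the VEGF arrays of 0 genes lay wholly above sham, against 19.6% and 18.2% of all items. On the 4 ischaemic arrays other than the pair that stood apart, 18 genes (47.4%) lay below all sham arrays, against 25.6% of all items. On that pair, 22 genes (57.9%) were more than 1 log2 unit below the sham mean on both arrays, against 12.0% of all items. More than 2 units below were 9 genes (23.7%), against 3.93%, among them Cacna1e, Cacna1i, Cacna2d1, Cacna2d3, Cacnb2, Cacng3, Scn2a and Scn2b. Cacng1, Cacng7 and Scn8a were above the sham mean on both.

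A fit without MCAO array 1 and VEGF array 1 leaves 2 arrays in each ischaemic group and had a smaller spread. The pair was left out because it stood apart in these same data, so the smaller spread is partly a product of that choice. Adjusted p values of this fit, here and below, may therefore be too low. Over all items this fit called 7028 in MCAO and 6175 in VEGF against sham, where the fit of all arrays called 868 and 748. In it 12 channel genes (31.6%) fell in MCAO against sham by limma's adjusted p, where 22.8% of all items were called and 13.0% were called lower. In VEGF against sham 9 (23.7%) fell, where 20.0% of all items were called and 11.3% were called lower. Among those common to both were Cacna1e, Cacna2d1, Cacna2d3, Cacnb3, Cacng6 and Cacng8. Of these, Cacna1e had been kept by the filter only through the sham group, which partly fixed its fall. Cacna1a, Cacna1b, Cacna1c, Cacnb1 and Scn4a passed in MCAO alone, and Cacng3 and Scn2b in VEGF alone, and none of these genes passed in the comparison of VEGF with MCAO. The median of the channel genes was -0.49 in MCAO and -0.26 in VEGF without the pair, against -0.10 and -0.11 over all items. Below 0 were 84.2% and 81.6% of the channel genes, against 58.1% and 58.8% of all items. None rose in this fit, where 9.79% of all items did in MCAO and 8.76% in VEGF.

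**Figure D3:**
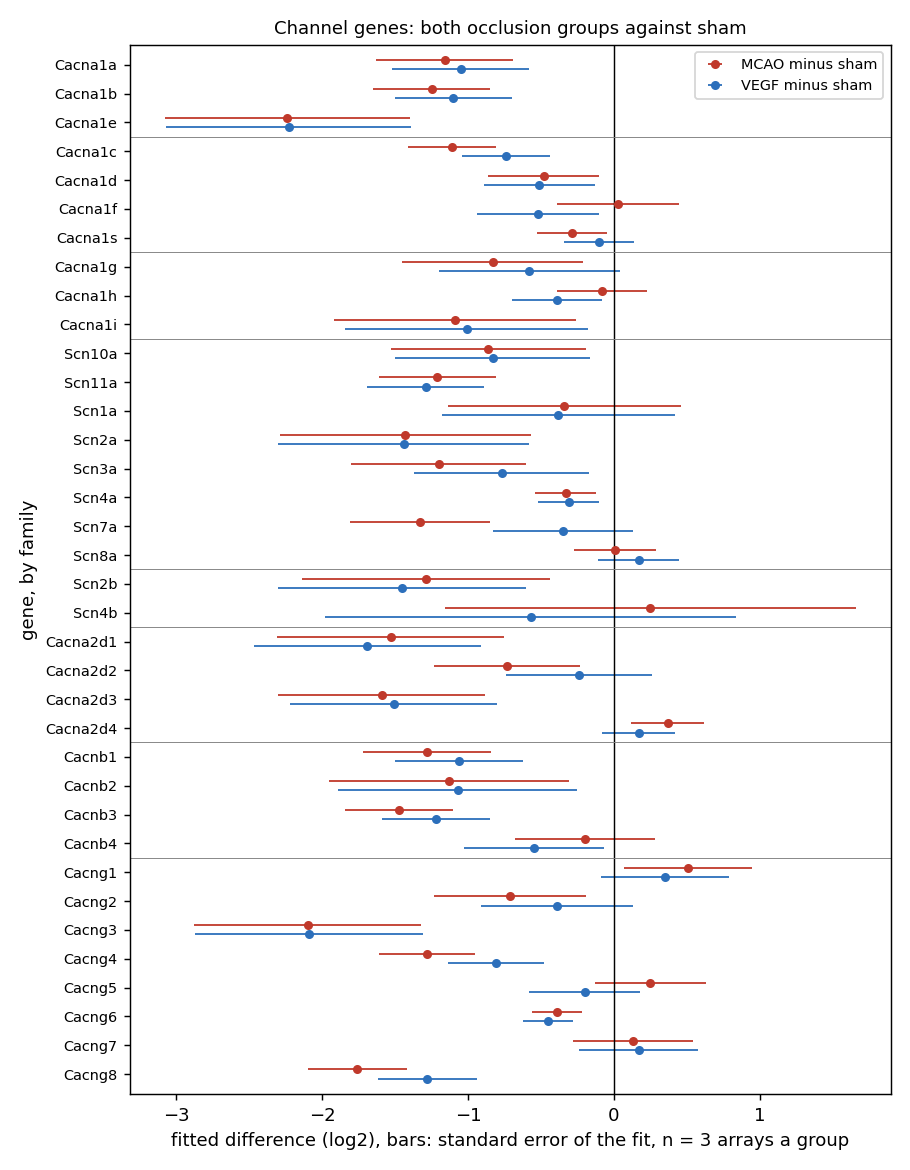
Points give the fitted log2 difference from sham for channel genes (rows, by family), red for MCAO and blue for VEGF, and bars the standard error of the fit with n = 3 arrays a group. Most points lie left of 0, with medians over all 38 genes of -0.88 and -0.66, and the bars of the red and blue points of a gene overlap for most genes.

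The Cav2 channels, which trigger transmitter release at presynaptic terminals, were below sham on every ischaemic array for each of the 3 genes. Their median difference was -1.25 in MCAO and -1.10 in VEGF. Cacna1e, the R-type pore, had levels of -2.61, -3.65 and -3.01 in sham, -6.97, -4.48 and -4.54 in MCAO and -6.95, -4.80 and -4.21 in VEGF. The lowest values were those of array 1 in both ischaemic groups, where the probe was not well above background, and no ischaemic array reached the sham range. The difference was -2.24 ± 0.84 (SE of the fit, n = 3 arrays a group) in MCAO (limma, adjusted p = 0.183) and -2.23 ± 0.84 in VEGF (adjusted p = 0.172). The filter kept Cacna1e only through the sham group, so its place below sham was partly fixed by the filter. Without the pair Cacna1e fell by 1.42 in MCAO (limma, adjusted p = 0.0264) and also by 1.42 in VEGF (adjusted p = 0.0306).

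Cacna1a encodes the P/Q-type pore, the main presynaptic calcium channel of many central synapses. Its levels were 2.25, 2.34 and 2.65 in sham, 0.31, 1.68 and 1.77 in MCAO and 0.52, 1.58 and 1.99 in VEGF, so the groups did not overlap with sham. The difference of -1.16 ± 0.47 in MCAO and -1.05 ± 0.47 in VEGF did not pass (limma, adjusted p = 0.21 and 0.223). A dimmer second probe of Cacna1a gave -1.04 and -0.99. Cacna1b, the N-type pore, was dim, with levels of -3.29, -4.10 and -3.95 in sham, -5.63, -4.90 and -4.55 in MCAO and -5.57, -4.54 and -4.53 in VEGF. Again every ischaemic array lay below sham, with a difference of -1.25 ± 0.40 in MCAO (limma, adjusted p = 0.133) and -1.10 ± 0.40 in VEGF (adjusted p = 0.162). Without the pair, Cacna1a and Cacna1b fell in MCAO by 0.69 and 0.95 (limma, adjusted p = 0.0411 and 0.046).

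Cav1, the L-type channels, couple activity to signalling in the cell body and to contraction in muscle. Their 4 genes differed among themselves. Cacna1c, the main L-type pore of brain and heart, was dim, with levels of -3.49, -4.02 and -4.03 in sham, -4.87, -5.02 and -4.98 in MCAO and -5.25, -4.31 and -4.21 in VEGF. Here the MCAO arrays lay close together, and MCAO array 1 was not the lowest of them. The difference was -1.11 ± 0.30 in MCAO (limma, adjusted p = 0.0916) and -0.74 ± 0.30 in VEGF (adjusted p = 0.19). It passed in MCAO without the pair, where it fell by 1.16 (limma, adjusted p = 0.0106), and without VEGF array 1 alone.

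Cacna1d, an L-type pore that opens at less depolarised potentials and supports pacemaking, had levels of -1.06, -1.26 and -0.83 in sham, -2.31, -1.25 and -1.02 in MCAO and -2.15, -1.41 and -1.13 in VEGF. Its low values were those of array 1 in each ischaemic group, VEGF array 2 was slightly below sham, and the other 3 lay within the sham range. The difference was -0.48 ± 0.38 and -0.51 ± 0.38, and without the pair -0.09 and -0.22. Cacna1f and Cacna1s, the L-type pores of photoreceptors and skeletal muscle, had differences of 0.03 ± 0.42 and -0.29 ± 0.24 in MCAO and -0.52 ± 0.42 and -0.10 ± 0.24 in VEGF, with arrays overlapping sham.

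Cav3, the T-type channels, open near rest and support burst firing. None of the 3 genes had all ischaemic arrays below sham. Cacna1g had levels of 2.16, 1.56 and 1.65 in sham, -0.05, 1.04 and 1.89 in MCAO and -0.07, 1.76 and 1.93 in VEGF. Array 1 of each ischaemic group was low, MCAO array 2 was slightly below sham and the other 3 lay within the sham range. Cacna1i was likewise lowest on array 1 of each ischaemic group, with 2.44, 3.14 and 2.98 in sham, 0.25, 2.29 and 2.74 in MCAO and 0.15, 2.19 and 3.18 in VEGF. Its MCAO array 2 and VEGF array 2 were slightly below sham, MCAO array 3 lay within the sham range and VEGF array 3 just above it. A second Cacna1i probe did not show the low value on the pair: its levels were -0.44, -0.77 and -0.71 in sham, -0.33, -1.58 and -1.60 in MCAO and -0.89, -1.41 and -1.09 in VEGF. Its differences of -0.53 and -0.49 had the same sign as the -1.09 ± 0.83 and -1.01 ± 0.83 of the brighter probe, and its VEGF arrays lay wholly below sham. Without the pair the second probe gave -0.95 and -0.61, against -0.34 and -0.17 for the brighter probe.

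Cacna1h, the third T-type pore, had levels of 1.26, 1.54 and 1.58 in sham, 1.86, 1.14 and 1.14 in MCAO and 0.51, 1.49 and 1.22 in VEGF. The 2 arrays that stood apart lay at opposite ends, MCAO array 1 above all sham arrays and VEGF array 1 below all of them. The differences were -0.08 ± 0.31 and -0.39 ± 0.31. A dimmer second Cacna1h probe read -2.35, -2.65 and -2.54 in sham, -2.05, -3.52 and -3.28 in MCAO and -3.29, -3.21 and -3.04 in VEGF. Its differences were -0.44 and -0.67, and its VEGF arrays lay wholly below sham. Without the pair it gave -0.89 and -0.62, against -0.32 and -0.11 for the brighter probe. The difference of Cacna1g was -0.83 ± 0.62 in MCAO and -0.58 ± 0.62 in VEGF, and in VEGF it turned to 0.06 without array 1.

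The sodium channel alpha subunits numbered 9, with a median difference of -0.86 in MCAO and -0.41 in VEGF, and none passed in the fit of all arrays. Scn2a encodes Nav1.2, a channel of unmyelinated axons and the axon initial segment of excitatory neurons. Its levels were 4.11, 4.13 and 4.26 in sham, 1.01, 3.53 and 3.69 in MCAO and 1.01, 3.24 and 3.93 in VEGF. The sham arrays spanned 0.15 log2 units, while the pair lay more than 2 units below them and the other 4 ischaemic arrays lay below sham by less. The difference was -1.43 ± 0.86 in MCAO (limma, adjusted p = 0.357) and -1.44 ± 0.86 in VEGF (adjusted p = 0.321). Without the pair it was -0.56 and -0.59 (limma, adjusted p = 0.104 and 0.101). All 3 Scn2a probes were below 0 in both groups, from -0.87 to -1.52 in MCAO and from -0.93 to -1.53 in VEGF.

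Scn3a, which encodes Nav1.3, a channel most abundant before birth, lies next to Scn2a in gene order on chromosome 2. Its levels were 1.40, 1.85 and 1.79 in sham, -0.93, 1.13 and 1.25 in MCAO and 0.01, 1.39 and 1.31 in VEGF. All 6 ischaemic arrays were below sham, VEGF array 2 just under sham array 1. The difference was -1.20 ± 0.60 in MCAO and -0.77 ± 0.60 in VEGF (limma, adjusted p = 0.285 and 0.43). Scn1a, the Nav1.1 channel on which fast-spiking inhibitory neurons depend, had levels of 2.01, 3.33 and 3.00 in sham, 1.08, 2.92 and 3.30 in MCAO and 0.75, 3.36 and 3.08 in VEGF. Only the pair lay below the sham range, and the differences of -0.34 ± 0.80 and -0.38 ± 0.80 became 0.33 and 0.44 without it. A dimmer Scn1a probe gave -0.23 and -0.11 there, so the sign without the pair depends on the probe.

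Scn8a encodes Nav1.6, the main channel of mature nodes of Ranvier, and its 3 probes did not move alike. The brightest probe read 1.55, 0.72 and 1.07 in sham, 1.46, 0.84 and 1.06 in MCAO and 1.62, 1.00 and 1.23 in VEGF, so the groups overlapped and the difference was 0.01 ± 0.28 and 0.17 ± 0.28. A second probe read -1.15, -0.92 and -0.54 in sham, -2.17, -1.63 and -1.27 in MCAO and -1.91, -1.34 and -1.11 in VEGF, below sham on all but VEGF array 3, which overlapped. The third read -2.35, -2.38 and -2.20, then -2.88, -3.03 and -2.93, then -4.33, -2.80 and -2.40. These dimmer probes gave -0.82 and -0.64 in MCAO and -0.58 and -0.87 in VEGF. In the fit of all arrays Scn8a was the single channel gene whose probes disagreed in sign against sham, so its direction depends on the probe.

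**Figure D4:**
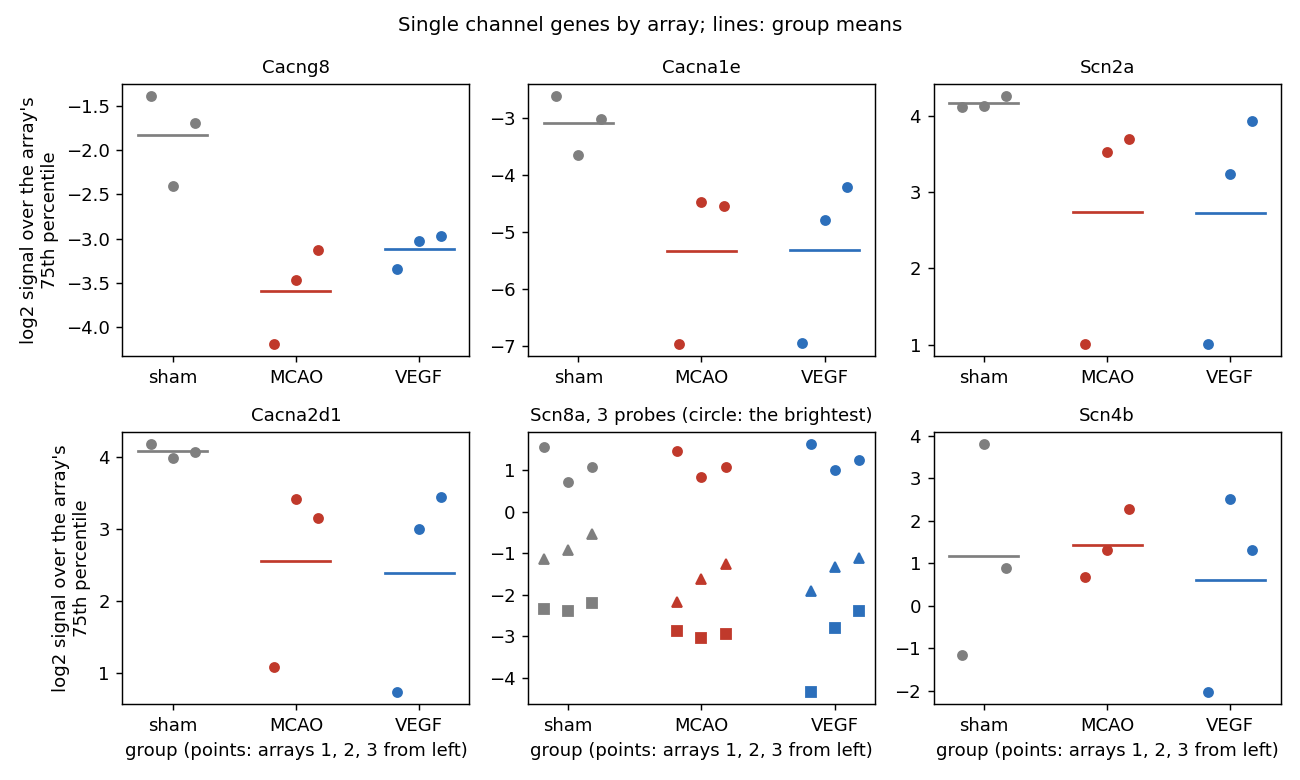
Points give the log2 signal over the array's 75th percentile for single channel genes on the 3 sham (grey), 3 MCAO (red) and 3 VEGF (blue) arrays, and lines the group means. Cacng8, Cacna1e, Scn2a and Cacna2d1 lie below sham on all 6 ischaemic arrays, 1 of the 3 Scn8a probes stays level while the others are lower on most ischaemic arrays, and Scn4b spans 4.98 log2 units within sham.

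Other alpha subunits are known mainly outside the brain. Scn11a, the Nav1.9 channel of pain-sensing neurons, had low levels of -1.84, -2.32 and -2.70 in sham, -3.92, -3.47 and -3.09 in MCAO and -4.05, -2.76 and -3.92 in VEGF. All 6 ischaemic arrays were below sham, with a difference of -1.21 ± 0.40 in MCAO (limma, adjusted p = 0.145) and -1.29 ± 0.40 in VEGF (adjusted p = 0.125). Scn4a, the skeletal muscle channel, differed by -0.33 ± 0.21 and -0.31 ± 0.21, Scn10a by -0.86 ± 0.67 and -0.83 ± 0.67, and the sodium sensor Scn7a by -1.33 ± 0.48 and -0.35 ± 0.48.

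Sodium channel beta subunits are single-pass membrane proteins that adjust gating and act in adhesion. Scn2b had levels of 5.05, 5.26 and 5.12 in sham, 2.25, 4.61 and 4.71 in MCAO and 1.88, 4.43 and 4.76 in VEGF. The ischaemic arrays lay below sham throughout, by more than 2 units on the pair. The difference was -1.29 ± 0.85 in MCAO and -1.45 ± 0.85 in VEGF (limma, adjusted p = 0.395 and 0.311). Without the pair it fell in VEGF by 0.55 (limma, adjusted p = 0.0469) and was -0.48 in MCAO (adjusted p = 0.062).

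Scn4b, which supplies the blocking particle of resurgent sodium current and is abundant in striatal projection neurons and Purkinje cells, varied among the sham animals. Its levels were -1.17, 3.81 and 0.89 in sham, 0.68, 1.31 and 2.28 in MCAO and -2.03, 2.52 and 1.31 in VEGF. The sham arrays alone spanned 4.98 log2 units, wider than 99.9% of all items, whose median span was 0.34. Striatal genes also peaked on sham array 2: Rgs9 read 1.29, 3.94 and 1.42 in sham, Ppp1r1b 4.57, 5.64 and 3.56, and Penk 4.96, 6.37 and 3.78. The median of 11 striatal markers was -0.20, 1.05 and -0.77 on the sham arrays and that of 11 oligodendrocyte markers -0.82, 0.91 and -0.02. That of 7 thalamic markers also peaked on sham array 2, with -0.38, 0.46 and -0.08. On the ischaemic arrays the striatal median lay between -2.23 and -1.05, the oligodendrocyte median between 0.26 and 1.91 and the thalamic median between -0.12 and 1.22. Scn4b minus its sham mean read -0.49, 0.14 and 1.1 in MCAO and -3.21, 1.35 and 0.14 in VEGF. It was thus above that mean on arrays 2 and 3 of both groups. The part of these markers in the Scn4b values was not tested. With a difference of 0.25 ± 1.41 in MCAO and -0.57 ± 1.41 in VEGF, Scn4b gave no direction. Its neighbour in gene order on chromosome 9, Scn2b, spanned 0.21 units over the sham arrays.

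Alpha2delta subunits carry calcium channels to the surface of terminals, and Cacna2d1 and Cacna2d2 are the binding sites of gabapentin. Cacna2d1 had levels of 4.18, 3.99 and 4.07 in sham, 1.08, 3.42 and 3.15 in MCAO and 0.74, 3.00 and 3.44 in VEGF. All 6 ischaemic arrays lay below the narrow sham range, and a second probe read the same order with differences of -1.71 and -1.66. The brighter probe gave -1.53 ± 0.78 in MCAO and -1.69 ± 0.78 in VEGF (limma, adjusted p = 0.292 and 0.231), and fell without the pair by 0.79 and 0.86 (adjusted p = 0.0246 and 0.0231). Cacna2d3 showed the same pattern, with 3.36, 3.65 and 3.68 in sham, 0.48, 2.85 and 2.58 in MCAO and 0.74, 2.51 and 2.91 in VEGF. Its difference was -1.59 ± 0.71 and -1.51 ± 0.71 (limma, adjusted p = 0.24 and 0.235), and it fell without the pair by 0.85 in both groups (adjusted p = 0.024 and 0.0272).

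Cacna2d4, the alpha2delta of photoreceptors, was dim and lay on the other side of 0. It read -3.72, -3.18 and -3.40 in sham, -3.05, -3.00 and -3.15 in MCAO and -3.71, -2.84 and -3.25 in VEGF. The MCAO arrays were all above sham and the VEGF arrays overlapped it, with differences of 0.37 ± 0.25 and 0.17 ± 0.25 that did not pass (limma, adjusted p = 0.416 and 0.693). Cacna2d2 had differences of -0.73 ± 0.50 and -0.24 ± 0.50.

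Calcium channel beta subunits bind the pore inside the cell and release it to the membrane. Cacnb3 had levels of 3.52, 3.06 and 3.26 in sham, 1.14, 2.09 and 2.20 in MCAO and 1.46, 2.11 and 2.59 in VEGF, with no overlap between sham and either group. The difference was -1.47 ± 0.37 in MCAO (limma, adjusted p = 0.0766) and -1.22 ± 0.37 in VEGF (adjusted p = 0.119). It fell without the pair by 1.13 and 0.93 (limma, adjusted p = 0.0131 and 0.027). Cacnb1 was also below sham on every ischaemic array, with differences of -1.28 ± 0.44 and -1.06 ± 0.44. The MCAO arrays of Cacnb2 also lay below sham, while its VEGF arrays overlapped it, with differences of -1.13 ± 0.82 and -1.07 ± 0.82. Cacnb4 overlapped sham in both groups, with -0.20 ± 0.48 and -0.55 ± 0.48.

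Of the gamma genes, 3 of 8 were below sham on all ischaemic arrays. Cacng8, which accompanies AMPA receptors most of all in hippocampus, had levels of -1.39, -2.41 and -1.70 in sham, -4.19, -3.47 and -3.13 in MCAO and -3.35, -3.03 and -2.97 in VEGF. Both ischaemic groups lay wholly below sham, and VEGF array 1 was close to the other VEGF arrays. It fell in MCAO by 1.76 ± 0.34 (limma, adjusted p = 0.0344), and the VEGF difference of -1.28 ± 0.34 did not pass (adjusted p = 0.094). Leaving out 1 array at a time gave adjusted p from 0.0242 to 0.156 in MCAO, and the call was lost without sham array 1 or 3, any single MCAO array, or VEGF array 2 or 3. Without the pair Cacng8 fell in both groups, by 1.47 and 1.17 (limma, adjusted p = 0.0192 and 0.041).

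Cacng7, Cacng8 and Cacng6 follow each other in gene order on chromosome 7, and their arrays did not follow each other. Cacng7, also a TARP, read -1.97, -2.08 and -2.01 in sham, -1.08, -2.28 and -2.30 in MCAO and -1.09, -2.30 and -2.16 in VEGF. It was higher than sham on the very pair where Cacng8 and most channel genes were low, and slightly below sham on the other 4 arrays. Its difference was 0.13 ± 0.41 and 0.17 ± 0.41. Cacng6, a gamma subunit related to that of muscle calcium channels, read -1.71, -1.73 and -1.71 in sham, -1.86, -2.23 and -2.23 in MCAO and -2.15, -2.22 and -2.12 in VEGF. Its sham span of 0.02 was narrower than that of nearly all items, and the difference of -0.39 ± 0.17 and -0.45 ± 0.17 was small (limma, adjusted p = 0.238 and 0.177).

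The windows of 250 bases before the RefSeq start of Cacng8, the gene that passed, and of its neighbour Cacng7, with the other sign on the pair, are shown with those of Cacna2d1 and Scn2b, members far below sham on the pair and with a high and a low share of G and C. Each is on the plus strand of GRCm38.p6, from RefSeq, and reads 5′ to 3′ toward the start, with matches to GGGCGG on either strand (read as CCGCCC on the strand shown) in capitals.
Cacng8, chr7:3393792-3394041: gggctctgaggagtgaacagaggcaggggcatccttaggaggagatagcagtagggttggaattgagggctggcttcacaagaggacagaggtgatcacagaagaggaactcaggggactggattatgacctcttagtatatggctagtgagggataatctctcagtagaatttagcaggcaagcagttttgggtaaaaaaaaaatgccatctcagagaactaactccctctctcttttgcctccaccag
Cacng7, chr7:3332575-3332824: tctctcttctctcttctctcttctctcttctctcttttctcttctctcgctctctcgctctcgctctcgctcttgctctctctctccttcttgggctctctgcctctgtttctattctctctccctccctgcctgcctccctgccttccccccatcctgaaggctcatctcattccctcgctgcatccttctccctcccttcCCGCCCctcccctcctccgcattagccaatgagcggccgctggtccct
Cacna2d1, chr5:15934441-15934690: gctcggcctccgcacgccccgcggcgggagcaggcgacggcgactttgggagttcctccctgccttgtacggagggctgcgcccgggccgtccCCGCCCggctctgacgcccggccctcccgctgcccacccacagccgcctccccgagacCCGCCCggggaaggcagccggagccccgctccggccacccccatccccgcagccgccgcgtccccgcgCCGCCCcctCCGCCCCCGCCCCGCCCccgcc
Scn2b, chr9:45117626-45117875: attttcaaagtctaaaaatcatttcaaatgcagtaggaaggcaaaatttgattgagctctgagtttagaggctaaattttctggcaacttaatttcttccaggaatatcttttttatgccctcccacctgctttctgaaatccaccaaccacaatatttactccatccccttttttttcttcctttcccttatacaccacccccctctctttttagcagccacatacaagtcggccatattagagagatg
The Cacng8 window held no match to any motif searched and was 48.0% G or C, and that of Scn2b held none either and was 38.4%. The Cacng7 window held 1 GC box at 58.0%, and the Cacna2d1 window 6, some of them overlapping, at 82.4%. The table holds 40 windows for 29 of the channel genes. The GC box (GGGCGG) was in 37.5% of these against 32.7% of all 32851 windows of that length, the E-box CAGCTG in 27.5% against 13.0%, and TATAAA in 5.0% against 12.4%, each searched on both strands. The letters TTCAGCACC, one side of the site bound by the neuronal repressor REST, were in 0 of the 40 windows and in 0.301% of all windows. A match describes letters and not a bound site. The median share of G and C was 56.8% in the channel windows and 52.4% in all.

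Cacng3, a TARP of cortical neurons, had levels of 1.99, 1.07 and 1.48 in sham, -2.25, 0.39 and 0.10 in MCAO and -1.85, -0.42 and 0.54 in VEGF, all ischaemic arrays being below sham. The difference was -2.10 ± 0.78 in MCAO and -2.09 ± 0.78 in VEGF (limma, adjusted p = 0.182 and 0.171). Without the pair it fell in VEGF by 1.45 (limma, adjusted p = 0.0381), and in MCAO the value was -1.27 (adjusted p = 0.0503). Cacng1, a muscle gamma subunit with a dim probe, had the highest difference of the family. It read -4.90, -5.14 and -4.86 in sham, -4.04, -4.53 and -4.81 in MCAO and -3.55, -4.84 and -5.45 in VEGF. The MCAO arrays lay above sham, the VEGF arrays on both sides of it, and the differences of 0.51 ± 0.44 and 0.35 ± 0.44 did not pass (limma, adjusted p = 0.52 and 0.626). Its neighbours in gene order on chromosome 11, the TARPs Cacng4 and Cacng5, differed by -1.28 ± 0.33 and 0.25 ± 0.38 in MCAO and by -0.81 ± 0.33 and -0.20 ± 0.38 in VEGF. Cacng2, stargazin, the founding TARP, differed by -0.71 ± 0.52 and -0.39 ± 0.52.

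Of 47 listed partners and regulators of these channels 46 were tested. In MCAO against sham 1 rose and 2 fell (limma, adjusted p), where 2.28% of all items were called higher and 0.535% lower. In VEGF against sham 1 rose, where 2.07% of all items did. The medians of the partners were -0.69 and -0.66, against -0.04 and -0.12 over all items. S100a10, or p11, an annexin partner that helps bring some channels to the membrane, read 1.27, 1.66 and 1.52 in sham, 3.45, 2.90 and 2.83 in MCAO and 3.41, 3.19 and 2.66 in VEGF. It rose by 1.58 ± 0.26 in MCAO and 1.60 ± 0.26 in VEGF (limma, adjusted p = 0.0195 and 0.02). Fgf13, an intracellular fibroblast growth factor homologue that binds the tail of sodium channels, read 1.37, 0.65 and 0.80 in sham, -1.88, -0.41 and -0.96 in MCAO and -0.70, -0.16 and -0.54 in VEGF. It fell in MCAO by 2.03 ± 0.38 (limma, adjusted p = 0.0298) and was -1.41 ± 0.38 in VEGF (adjusted p = 0.0955).

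Camk2d, a calcium/calmodulin-dependent kinase subunit that phosphorylates channels in several tissues, fell in MCAO by 1.44 ± 0.27 (limma, adjusted p = 0.0305), from 4.32, 4.0 and 3.86 in sham to 2.53, 2.62 and 2.72. In VEGF it read 2.46, 3.46 and 2.80 (adjusted p = 0.0706). Each of these calls was lost when any 1 sham array was left out, with adjusted p up to 0.107 for S100a10 in both comparisons, 0.144 for Fgf13 and 0.147 for Camk2d, and that of Camk2d also with its probes averaged (adjusted p = 0.0684). Leaving out MCAO array 3 also ended the MCAO calls of all 3 genes, leaving out MCAO array 2 those of S100a10 and Camk2d, leaving out MCAO array 1 that of Camk2d, and leaving out VEGF array 2 the VEGF call of S100a10. Among the partner groups, the 4 fibroblast growth factor homologues had a median of -1.34 in MCAO and -1.11 in VEGF. The 9 calcium sensor and active zone partners had -0.89 and -0.91, and the 4 RGK GTPases, which inhibit calcium channels, 0.24 and 0.67. The RGK genes were unlike: Gem differed by 2.90 ± 0.79 and 2.71 ± 0.79, Rem1 by 0.23 and 0.30, Rrad by 0.25 and 1.04, Rem2 by -0.64 and -0.23. Gem and Akap12 (2.45 ± 0.66 and 2.54 ± 0.66) had the largest partner differences. Neither passed (limma, adjusted p = 0.0946 and 0.113 for Gem, 0.0916 and 0.0886 for Akap12). Without the pair both rose in both groups (limma, adjusted p = 0.00232 and 0.0144, 0.000801 and 0.00191).

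The comparison of VEGF with MCAO addresses what the injected growth factor changed after occlusion, as the series title puts it. None of the 38 channel genes passed (limma, 0 at adjusted p under 0.05 and 0 at unadjusted p under 0.05), where 0.00649% of all items passed the adjusted test and 2.78% the unadjusted. Below 0 were 16 of the 38 genes (42.1%), against 53.4% of all items, and the median difference was 0.03 against -0.02. The differences ran from -0.82 (Scn4b) to 0.97 (Scn7a). No gene had MCAO and VEGF arrays that did not overlap, although 3.48% of all items had VEGF wholly below MCAO and 2.33% wholly above.

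In the fit of all arrays, which does not pair them, the 95% interval of the VEGF minus MCAO difference was -0.30 to 1.26 for Cacng8, -0.32 to 1.06 for Cacna1c, -1.91 to 1.94 for Cacna1e and -1.98 to 1.96 for Scn2a. These widths include the distance of array 1 from the others in both groups. Between arrays of the same number, Cacna1e differed by 0.03, -0.32 and 0.33, and Scn2a by 0.01, -0.29 and 0.24. The numbers were taken to pair these arrays only from correlations in these same data, and the mice of the groups were different animals. A fit of these 6 arrays with the replicate number as a block gave intervals of -0.52 to 0.54 and -0.50 to 0.48, and 0 channel genes passed in it. These narrower intervals, and the counts by pair below, hold only if that pairing is real. Cacng8 was higher in VEGF in every pair, by 0.84, 0.44 and 0.17 (blocked interval -0.06 to 1.02), and so was the brightest Scn8a probe, by 0.15, 0.16 and 0.17 (-0.23 to 0.55). In all, 9 genes (23.7%) were higher in VEGF in all 3 pairs, where 13.9% of all items were, and 0 were lower in all 3, where 13.6% were. The missing calls do not show that the groups were alike. Scn7a, with 0.97 ± 0.48 (limma, adjusted p = 1), rested on values not well above background on 4 of the 6 ischaemic arrays. Without the pair 1 gene had an unadjusted p under 0.05, where 7.4% of all items did, and 0 passed after adjustment, where 0.00973% did. It was Cacna1c, singled out after its values were seen: VEGF arrays 2 and 3 were 0.74 above MCAO arrays 2 and 3 (limma, adjusted p = 0.554), but VEGF array 1 was the lowest of all 9.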

How the data were processed

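Brain RNA of 9 mice was labelled with Cy3 (200 ng each, per the labels) and hybridised to 1-colour Agilent arrays with 3671 control spots among 62976. The file headers name Feature Extraction 10.7.1.1. The deposited processed intensity was read as the background-subtracted signal divided by a spatial trend, deposited as a ratio per spot. That the trend was not applied to MCAO array 1 was inferred from the signals. The table of values that the authors deposited, of unstated scale, correlated at 0.998 to 0.9999 with the log2 processed intensity and had medians of 6.98 on all arrays. It is read as log2, and how it was centred is unknown.

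From the intensity, log2 values minus each array's 75th percentile (723 to 1770) were computed, averaging the spots of a probe. Probes well above background on all 3 arrays of a group were kept (43920 of 55681); no spot was saturated, and 73.0% to 81.8% of spots were well above background. Symbols came from RefSeq accessions (GRCm38.p6 table) for 26582 probes. limma 3.58.1 in R 4.3.3 was fitted to all 9 arrays over 30836 items (17588 with a symbol), two-sided, with Benjamini-Hochberg adjustment at 0.05. The script was tested on simulated data. The fit had 8.48 degrees of freedom and, for the median item, a 95% interval of ± 0.71 on the log2 scale. Precision is limited by the number of arrays. An exact permutation of 3 against 3 arrays cannot go below p = 0.1.

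The genes and lists were chosen with earlier results of these data known. Named with all arrays were 12 brain pore genes, genes that passed, the 10 of largest mean difference without overlap between sham and the ischaemic arrays, the auxiliary subunit of largest difference each way per family, up to 5 without overlap between MCAO and VEGF (there were 0), and partners that passed. Same-numbered MCAO and VEGF arrays deviated together (correlations of 0.224 to 0.587), so the numbers were taken to pair these groups, as a hint from the data. MCAO array 2 correlated better with VEGF array 3 (0.392) than with VEGF array 2 (0.224), and VEGF array 2 slightly better with MCAO array 3 (0.234). Ages in array order were 50, 52 and 53 days in MCAO, 50, 50 and 53 in VEGF and 50, 52 and 52 in sham. The mice of MCAO array 2 and VEGF array 2 thus differed in age. Alternatives were other normalizations, backgrounds, filters, probes, covariates, and arrays left out. Counts and medians cover all 38 genes, and some of them are not reported singly here.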

Additional observations from a re-analysis of the deposited data

How the results depend on the processing

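Channel genes called in MCAO against sham numbered 1, but 0 with quantile normalization or the authors' table (adjusted p of Cacng8 0.0514 and 0.0516), 2 with only the groups compared (with Cacna1c), 2 with age as covariate (with Cacnb3) and 12 without the pair. Leaving out 1 array gave 0 to 3 calls, with Cacna1c and Cacnb3 added without VEGF array 1. In VEGF against sham the count was 0, 9 without the pair, and 0 to 2 with 1 array left out (Cacnb3 and Cacng8, without MCAO array 1). Over all 30836 items, the 868 MCAO calls became 1011 with quantile normalization, 1013 with the authors' table and 558 with normexp background. They became 1788 with only the groups compared, 1594 with age as covariate and 7028 without the pair. With 1 array left out they were 190 to 2583, the last without VEGF array 1, where 3 channel genes were called. The 748 VEGF calls became 923, 924, 440 (normexp) and 6175 without the pair. With 1 array left out these were 156 to 3270, the last without MCAO array 1, where 2 channel genes were called. Medians of the channel genes kept their sign against sham (-1.18 to -0.49 in MCAO, -0.95 to -0.26 in VEGF). With normexp background the MCAO differences of dim genes were smaller in size: -0.58 for Cacna1b, -0.61 for Cacna1c, -0.98 for Cacna1e, 0.25 for Cacng1 and 0.19 for Cacna2d4. In VEGF they were -0.35, -0.24, -0.81, 0.34 and 0.18 in the same order. VEGF minus MCAO gave 0 channel calls everywhere, with medians from -0.24 to 0.54.

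Of 50 differences named singly, 40 reversed under no alternative. Reversed were Cacna1g in VEGF (-0.94 to 0.06 with 1 array left out, 0.06 without VEGF array 1 or the pair), Cacna1h in MCAO (-0.32 to 0.04 with 1 array left out, 0.04 without MCAO array 2 or 3), Cacna2d4 in VEGF (-0.05 to 0.39, the first without VEGF array 2), Cacng1 in VEGF (-0.18 to 0.77, -0.18 without VEGF array 1 or the pair) and Scn1a (-0.78 to 0.33 in MCAO and -0.86 to 0.44 in VEGF, above 0 without array 1 of the group or the pair). Scn4b in MCAO became -0.92 without sham array 1 and -0.18 without MCAO array 3, (up to 1.57 without sham array 2), and in VEGF 0.74 without sham array 2, VEGF array 1 or the pair (down to -1.75 without sham array 1). Scn8a in MCAO became -0.06 with normexp background, -0.48 with all probes averaged, -0.18 and -0.01 without sham array 2 or 3, and -0.16 without MCAO array 1 or the pair; in VEGF it became -0.43 with all probes averaged and -0.02 without sham array 2. Without sham array 1 it was 0.23 and 0.39. Causes were not tested beyond the probes and arrays named.

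Same-numbered arrays of sham correlated at -0.107 to 0.151 with MCAO and -0.032 to 0.135 with VEGF. The replicate block changed no channel call: 1, 0 and 0 genes passed, with medians of -0.88, -0.66 and 0.03, and 0 with only the MCAO and VEGF arrays, an alternative chosen after seeing the data.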
